A study of Homo sapiens with 28 samples.

Results

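The human mitochondrial genome is a small circular DNA that encodes subunits of the respiratory chain and ATP synthase, together with the rRNAs and tRNAs that translate them inside the organelle. Its transcripts were followed here in Kelly cells, an established neuroblastoma line with an amplified MYCN gene, after transfection with 1 of 6 microRNA mimics. The members were the rows of the expression table whose symbol starts with MT-, without regard to their values. They were 30 of 30887 rows: 13 mRNAs, 2 rRNAs and 15 of the 22 tRNAs in the annotation. All 13 mRNAs, both rRNAs and 1 tRNA, MT-TF, passed the filter on low counts and were tested, as 16 of 15058 tested genes. The other 14 tRNAs are described by their counts.

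The 28 libraries form 7 groups of 4. The transfected groups received a double-stranded mimic of miR-485-3p, miR-380-3p, miR-100-3p, miR-99b-5p, miR-1283 or miR-1915-3p, and the control group received a scrambled, non-targeting mimic. All groups were the same cell line, reverse transfected with 25 nM of mimic using a lipid reagent, changed to new medium on the next day and harvested 48 h after transfection. Total RNA was made into strand-marked libraries after selection of poly(A) RNA. Untransfected cells were not analysed here, so every group carries the transfection itself. Nothing in the labels states that replicates were grown separately, so the p-values measure the spread between these libraries, which may be technical.

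Both strands of the circle are transcribed as long precursors that run through many genes, and the tRNAs that lie between the genes are cut out to free the mRNAs and rRNAs. The strands are called heavy and light after their base composition. All mitochondrial mRNAs but MT-ND6 are read from the heavy-strand template, as are both rRNAs. The heavy-strand mRNAs receive short poly(A) tails in the matrix and the rRNAs shorter ones still, while the light-strand mRNA MT-ND6 is known for having no such tail or a very short one, and mature tRNAs carry none. A poly(A) library therefore samples these classes unequally, and each class is described apart. In neuroblastoma cells, as in others, the encoded proteins are core subunits of complexes I, III and IV and of ATP synthase (complex V). MicroRNAs act chiefly on cytosolic mRNAs, by pairing of the seed, bases 2 to 8, with the target.

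The mature sequences of the mimicked microRNAs are shown because the seed, in capitals, sets which letters were searched in the mitochondrial transcripts (RefSeq, GRCh38.p14).
miR-99b-5p: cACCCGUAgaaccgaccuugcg
miR-380-3p: uAUGUAAUaugguccacaucuu
miR-485-3p: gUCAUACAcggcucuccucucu
miR-100-3p: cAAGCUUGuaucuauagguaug
miR-1915-3p: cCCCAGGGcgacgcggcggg
miR-1283: uCUACAAAggaaagcgcuuucu
No 2 of these seeds are the same.

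The heptamers complementary to the seeds were searched on the sense strand of the 13 mRNAs and 2 rRNAs, with no 2 of the matches overlapping. The heptamers TACGGGT (miR-99b-5p), CAAGCTT (miR-100-3p) and CCCTGGG (miR-1915-3p) were found in none of these transcripts. ATTACAT (miR-380-3p) was found once in MT-CO2 and once in MT-ND3, TGTATGA (miR-485-3p) once in MT-RNR2 and once in MT-ND6, and TTTGTAG (miR-1283) at 2 places in MT-CO3. The matches are printed with the heptamer in capitals so that they can be read against the seeds above (GRCh38, mitochondrial chromosome, from the annotated transcripts).
MT-CO2, miR-380-3p, chrM:8034-8062, plus strand: ttcgtataataATTACATcacaagacgtc
MT-ND3, miR-380-3p, chrM:10105-10133, plus strand: tactaataattATTACATtttgactacca
MT-RNR2, miR-485-3p, chrM:2615-2643, plus strand: aaatagggaccTGTATGAatggctccacg
MT-ND6, miR-485-3p, chrM:14223-14251, minus strand: tgcgggggcttTGTATGAttatgggcgtt
MT-CO3, miR-1283, chrM:9787-9815, plus strand: gctcaacatttTTTGTAGccacaggcttc
MT-CO3, miR-1283, chrM:9925-9953, plus strand: gatactggcatTTTGTAGatgtggtttga
For each match, windows of the same length as the mitochondrial transcript were taken from nuclear transcripts. The heptamer was present in 5.55% of such windows for MT-CO2, 2.93% for MT-ND3, 11.34% for MT-RNR2, 4.6% for MT-ND6 and 8.2% for MT-CO3. A match describes the letters and is not a measured site.

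Library totals ran from 10.99 to 23.3 M expected counts. The 8 markers of adrenergic neuroblastoma that were looked up were all present, with MYCN at a mean of 4548 CPM (counts per 1 M counts of the library, scaled by TMM). Of the markers of other cell types, the endothelial gene PECAM1 averaged 0.0039 CPM, the liver gene ALB 0.019 CPM and the fibroblast gene COL1A1 7.55 CPM, and the leukocyte gene PTPRC has no row. Library miR-380-3p replicate 2 stood apart from the other 3 of its group in several transcripts. The MT-RNR1 and rRNA results that rest on it are given with and without it.

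Per unit length, the mRNAs of complex IV (cytochrome c oxidase) stood highest. On the scale of CPM per kb, averaged over 28 libraries, MT-CO2 had 14035, MT-CO1 12620 and MT-CO3 11833. They are the 3 mitochondrially encoded oxidase subunits, and MT-CO1 carries the oxygen-reducing centre. The ATP synthase mRNAs followed, with MT-ATP6 at 11036 and MT-ATP8 at 9000 CPM per kb. Of the complex I (NADH dehydrogenase) mRNAs, MT-ND4 had 8359, MT-ND2 7160, MT-ND1 5744, MT-ND4L 4500, MT-ND3 2741, MT-ND5 1457 and MT-ND6 1235 CPM per kb. MT-CYB, the only mitochondrially encoded subunit of complex III, had 3587 CPM per kb. Among the rRNAs, MT-RNR2 (16S, of the large ribosomal subunit) had 7472 and MT-RNR1 (12S, of the small subunit) 1842 CPM per kb.

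Neighbours in this order were not all separable. MT-ATP8 was above MT-ND4 in 17 of 28 libraries, MT-RNR2 above MT-ND2 in 17 and MT-ND5 above MT-ND6 in 17, and MT-ND4 was above MT-RNR2 in 20. By contrast MT-ND2 was above MT-ND1, and MT-ND1 above MT-ND4L, in 28 of 28. Members that share RNA are not independent in this order. MT-ATP8 and MT-ATP6 lie on 1 bicistronic mRNA, as do MT-ND4L and MT-ND4, and the reading frames overlap. The 46 bases common to MT-ATP8 and MT-ATP6, 22.2% of the length of MT-ATP8, are printed because reads in them belong to both genes (GRCh38, plus strand).
chrM:8527-8572: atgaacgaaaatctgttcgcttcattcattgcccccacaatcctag
MT-ND4L and MT-ND4 share 7 bases. How the authors' counting divided reads in these overlaps is not given in the sources used here.

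**Figure D1:**
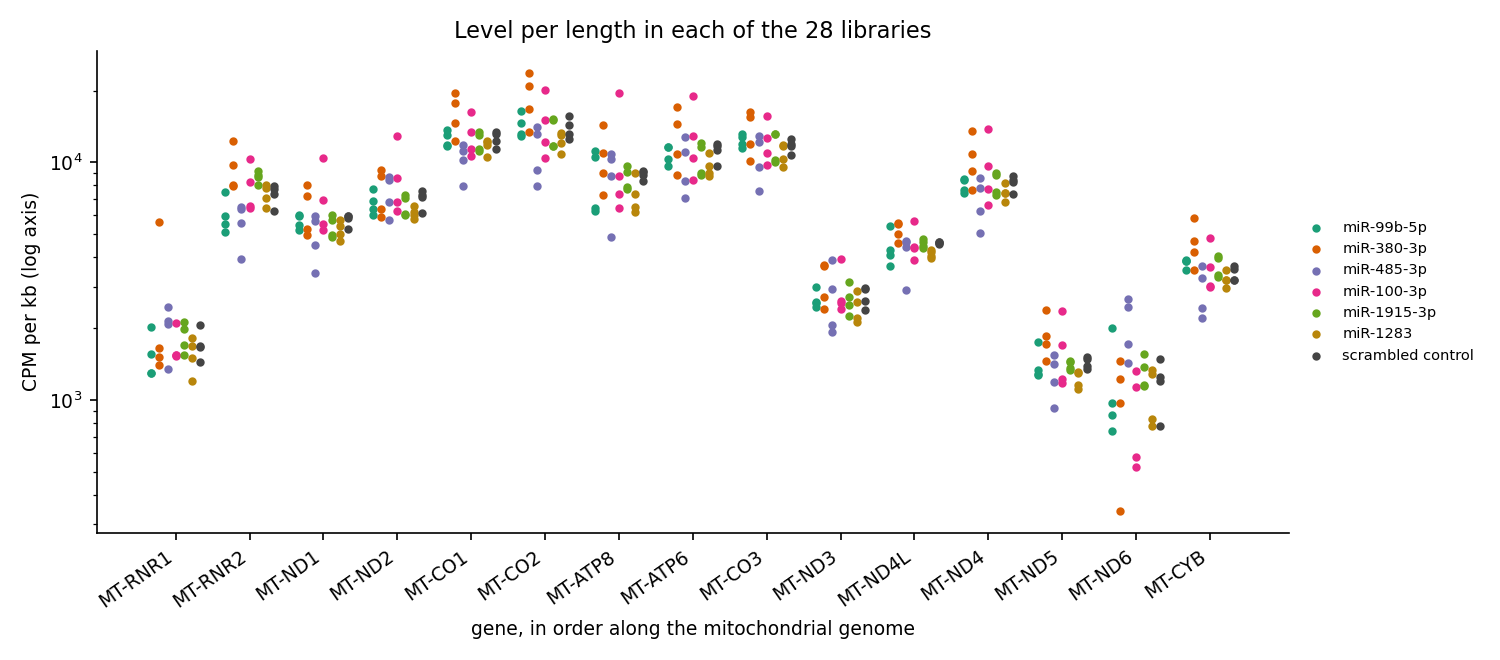
Level of each mitochondrial mRNA and rRNA per length, in CPM per kb on a log axis, in order along the mitochondrial genome. Each point is 1 library and colours mark the 7 groups; the complex IV and ATP synthase mRNAs lie highest, MT-ND5 and MT-ND6 lowest, and MT-ND6 has the widest spread.

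As a share of all mitochondrial mRNA counts, not scaled by length, the 3 complex IV mRNAs took 46.9% on average over 28 libraries, with a range of 41.3% to 49.4%. The 7 complex I mRNAs took 36.7% (34.6% to 40.5%), the 2 ATP synthase mRNAs 11.4% (10.1% to 13.8%) and MT-CYB 5.0% (4.25% to 5.86%). The 4 ranges did not overlap.

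The 13 mRNAs together made up 8.15% of the counts of a library on average, with 5.39% in the lowest library (miR-485-3p replicate 3) and 11.97% in the highest (miR-380-3p replicate 4). Under miR-380-3p the mRNA shares of replicates 1 to 4 were 7.68%, 10.4%, 8.85% and 11.97%, against 8.30%, 7.45%, 8.53% and 8.22% in control replicates 1, 2, 4 and 5. Under miR-485-3p, replicates 1, 2, 3 and 5 had 8.16%, 8.45%, 5.39% and 6.59%. Under miR-380-3p 3 of 4 libraries were above every control, and under miR-485-3p 2 of 4 were below every control, so both groups overlapped the controls.

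The group means of the mRNA share were 8.05 ± 0.61% under miR-99b-5p, 9.73 ± 1.87% under miR-380-3p, 7.15 ± 1.43% under miR-485-3p, 8.77 ± 2.14% under miR-100-3p, 7.88 ± 0.76% under miR-1915-3p, 7.36 ± 0.47% under miR-1283 and 8.12 ± 0.47% in the control (SD, n = 4 each). Under miR-380-3p, miR-485-3p and miR-100-3p the SD of the group was larger than its mean difference from the control. For miR-1283 the difference, -0.76 percentage points, was larger than the SD of either group, and 2 of its 4 libraries were below every control. Single libraries decided much of this. The difference under miR-380-3p was 1.60 percentage points, and without its replicate 4 it was 0.855. Under miR-485-3p it was -0.98, and without its replicate 3 -0.39. Under miR-100-3p it was 0.65, and without its replicate 3 it turned to -0.33. These shares are sums over members and were not tested. In bulk RNA a share cannot tell more mitochondrial RNA from less nuclear RNA, nor a change in all cells from a change in some.

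The rRNAs took 1.34% of counts on average, from 0.766% (miR-485-3p replicate 3) to 2.34% (miR-380-3p replicate 2). Under miR-380-3p the rRNA shares of replicates 1 to 4 were 1.41%, 2.34%, 1.42% and 1.61%, against 1.30%, 1.41%, 1.35% and 1.17% in control replicates 1, 2, 4 and 5. All 4 miR-380-3p libraries were above all 4 controls, although the lowest of them was within 0.01 percentage points of the highest control. The group mean was 1.69 ± 0.44% under miR-380-3p, against 1.31 ± 0.10% in the control (SD, n = 4 each). Without miR-380-3p replicate 2 its mean was 1.48 ± 0.11% (SD, n = 3). Under miR-1915-3p the share was 1.52 ± 0.08%, with 3 of 4 libraries above every control. Under miR-99b-5p it was 1.08 ± 0.20%, with 3 of 4 below every control, under miR-485-3p 1.07 ± 0.21%, with 2 of 4 below, under miR-100-3p 1.38 ± 0.26% and under miR-1283 1.30 ± 0.12%.

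**Figure D2:**
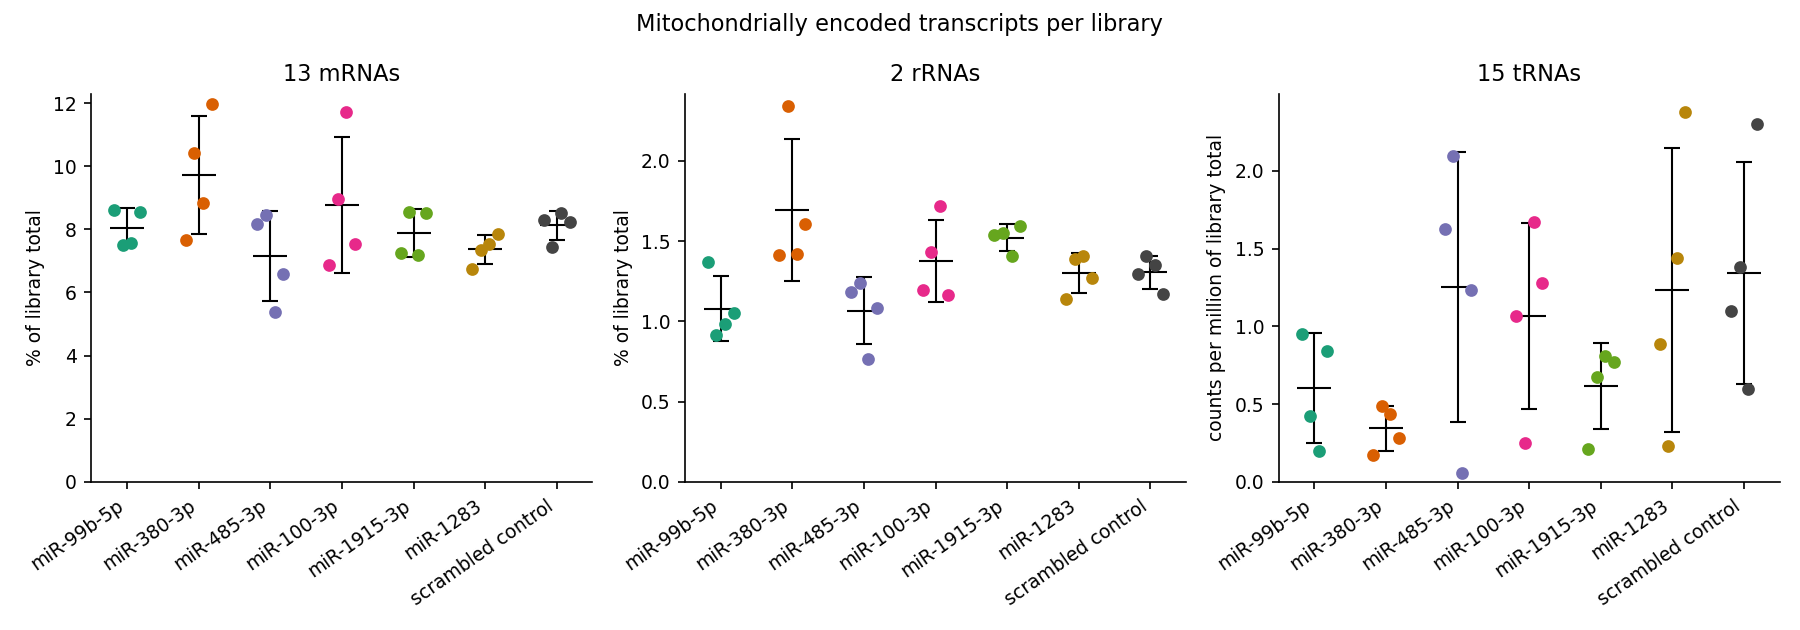
Share of the library total held by the 13 mRNAs (%), the 2 rRNAs (%) and the 15 tRNAs (CPM, not TMM-scaled), by group. Points are libraries, the horizontal mark is the group mean and bars are ± SD (n = 4 each); the mRNA share under miR-380-3p, miR-485-3p and miR-100-3p is spread more widely than in the control, and the 4 miR-380-3p libraries hold 0.174 to 0.486 tRNA CPM.

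The tRNAs were at the limit of detection, with 396 counts in 28 libraries, or 1 to 48 counts a library. MT-TF (phenylalanine tRNA) held 148 of them, MT-TA (alanine) 66, MT-TL1 (leucine) 50 and MT-TE (glutamate) 34, and the other 11 held 1 to 18 each. Under miR-380-3p the tRNA counts were 2, 7, 7 and 5 in replicates 1 to 4, against 15, 18, 8 and 35 in control replicates 1, 2, 4 and 5. All 4 miR-380-3p libraries were below all 4 controls, at 0.345 ± 0.144 CPM (of the unscaled library total) against 1.34 ± 0.72 CPM in the control (SD, n = 4 each). Counting error is wide at this depth. The exact 95% binomial interval of miR-380-3p replicate 2 ran between 0.195 and 1.00 on the same scale. That of control replicate 4 ran between 0.258 and 1.18. The other groups overlapped the controls. Intervals cover counting error only.

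Across the 6 mimics, none of the 16 tested mitochondrial genes was called against the scrambled control with edgeR's quasi-likelihood test, at an adjusted p under 0.05 (Benjamini-Hochberg over all 15058 genes). DESeq2 and limma-voom also called 0 of the 16 under every mimic. Over all tested genes the same rule called 16.6% under miR-99b-5p, 10.9% under miR-380-3p, 21.1% under miR-485-3p, 5.96% under miR-100-3p, 0.246% under miR-1915-3p and 0.0199% under miR-1283. At an unadjusted p under 0.05, 4 mRNAs and 1 rRNA were past the limit under miR-380-3p, 2 mRNAs and 1 rRNA under miR-485-3p, and 0 under the other 4 mimics. As shares of the 16 members these are 31.25% and 18.75%. Over all tested genes the same limit was passed by 24.3% under miR-380-3p and 32.5% under miR-485-3p, and by 29.2% under miR-99b-5p, 18.6% under miR-100-3p, 6.35% under miR-1915-3p and 3.01% under miR-1283. A p that misses the threshold does not show that the levels were alike, and the 95% intervals given beside the estimates show the sizes that remain possible.

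Under miR-380-3p the estimates of the 12 heavy-strand mRNAs were all above 0, from 0.10 to 0.43 on the log2 scale. The median over the 13 mRNAs was 0.20. Without miR-380-3p replicate 4 it was 0.11, without replicate 2 it was 0.13 and without replicate 1 it was 0.34. Each time 12 of 13 were above 0, but without replicate 4 they were not the same 12. There heavy-strand MT-ND2 fell below 0 and MT-ND6 was above it. MT-CYB, the cytochrome b subunit of complex III, had 4002, 5299, 4803 and 6679 CPM in miR-380-3p replicates 1 to 4, against 4077, 3648, 4163 and 3649 CPM in control replicates 1, 2, 4 and 5. Replicate 1 lay inside the control range and the other 3 above it. The log2 change was 0.42 ± 0.15 (SE), with a 95% interval of 0.11 to 0.73 and an adjusted p of 0.0699 by edgeR. Without miR-380-3p replicate 1 it was 0.53, with an adjusted p of 0.0231, and it was also called without 2 libraries of other groups, at an adjusted p of 0.0479 without miR-485-3p replicate 2 and 0.0387 without miR-100-3p replicate 3. Without miR-380-3p replicate 4, the library with the highest value, it was 0.28 with an adjusted p of 0.307.

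MT-CO1 had 18879, 27464, 22601 and 30090 CPM in miR-380-3p replicates 1 to 4, against 19038, 17621, 20361 and 20705 CPM in control replicates 1, 2, 4 and 5. Here too replicate 1 was within the control range. The log2 change was 0.35 ± 0.13 (95% interval 0.08 to 0.62, adjusted p = 0.0854 by edgeR), and without replicate 1 it was 0.46 with an adjusted p of 0.0186, against 0.24 and 0.321 without replicate 4. MT-CO2, which holds a match to the miR-380-3p seed, was at 0.43 ± 0.18 (adjusted p = 0.142), and MT-ND3, which holds the other, was at 0.20 ± 0.18 (adjusted p = 0.551). MT-ND5, a large complex I subunit, was at 0.37 ± 0.17 (adjusted p = 0.183). With all libraries, MT-ND6 was the only mRNA with an estimate below 0, at -0.24 ± 0.35.

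Both rRNAs had estimates above 0 under miR-380-3p, with MT-RNR2 at 0.38 ± 0.16 (adjusted p = 0.130 by edgeR) and MT-RNR1 at 0.57 ± 0.29 (adjusted p = 0.241). MT-RNR1 had 1345, 5352, 1578 and 1441 CPM in miR-380-3p replicates 1 to 4, against 1374, 1597, 1610 and 1980 CPM in control replicates 1, 2, 4 and 5. Replicate 2 alone was above the controls, replicate 1 was below them and the other 2 were within their range. Without replicate 2 the MT-RNR1 estimate turned to -0.17 (adjusted p = 0.578), and that of MT-RNR2 was 0.23 (adjusted p = 0.372).

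Under miR-485-3p, 11 of the 12 heavy-strand mRNAs had estimates below 0, down to -0.32, and MT-ND2 was at 0.07 ± 0.17. The median over the 13 mRNAs was -0.18, and without miR-485-3p replicate 3 it was -0.07, with 9 of 13 below 0. MT-CO1 had 18176, 17258, 12203 and 15706 CPM in miR-485-3p replicates 1, 2, 3 and 5, against 17621 to 20705 CPM in the 4 controls, a log2 change of -0.30 ± 0.13 (adjusted p = 0.111 by edgeR). MT-RNR2, which holds a match to the miR-485-3p seed, had 9891, 10064, 6135 and 8691 CPM in these replicates, against 11470, 12349, 12002 and 9731 CPM in control replicates 1, 2, 4 and 5. For MT-RNR2, 2 of 4 miR-485-3p libraries were below every control, and the log2 change was -0.39 ± 0.16 (95% interval -0.71 to -0.06, adjusted p = 0.0812). Without miR-485-3p replicate 3 the change was -0.21 for MT-CO1 and -0.27 for MT-RNR2 (adjusted p = 0.316 and 0.269).

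MT-ND6, the light-strand mRNA and a complex I subunit, pointed the other way under miR-485-3p. It had 1289, 753.4, 901.5 and 1399 CPM in miR-485-3p replicates 1, 2, 3 and 5, against 407.3, 633.0, 656.0 and 780.3 CPM in control replicates 1, 2, 4 and 5. In 3 of 4 libraries it was above every control. The log2 change was 0.81 ± 0.35 (95% interval 0.08 to 1.54, adjusted p = 0.107 by edgeR). In a fit of only these 8 libraries it was 0.80 with an adjusted p of 0.0309. Without any one of these libraries it was not called. It was then between 0.65 (adjusted p = 0.228, without miR-485-3p replicate 5) and 0.95 (0.0705, without miR-485-3p replicate 2). The highest adjusted p was 0.268, without control replicate 1. MT-ND6 also holds a match to the miR-485-3p seed.

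Under the other 4 mimics none of the members passed an unadjusted p of 0.05. Under miR-100-3p, 11 of 13 mRNAs were above 0, with MT-ND2 at 0.29 ± 0.17 (adjusted p = 0.365 by edgeR) and MT-ND6 at -0.40 ± 0.35 (adjusted p = 0.594). This direction rested on 1 library: without miR-100-3p replicate 3, 2 of 13 were above 0, the median was -0.08 in place of 0.09, and MT-ND2 was at 0.04. Under miR-1283 all 13 were below 0, with a median of -0.16 and MT-ATP8 the lowest at -0.29 ± 0.28. MT-CO3, with both matches to the miR-1283 seed, was at -0.11 ± 0.15. Under miR-99b-5p 10 of 13 and under miR-1915-3p 11 of 13 were below 0, with medians of -0.04 in both. These balances turned as well, with 8 of 13 above 0 under miR-99b-5p without its replicate 3, 9 without its replicate 4, 8 with the GC slope and 10 with RN7SK as a term, and 7 of 13 above 0 under miR-1915-3p without its replicate 1. The largest rRNA estimates among these mimics were those of MT-RNR2, at -0.28 ± 0.16 under miR-99b-5p (adjusted p = 0.246) and 0.25 ± 0.16 under miR-1915-3p (adjusted p = 0.913). The signs are not 13 separate results, since the mRNAs of a library moved together, and the same control libraries enter all 6 comparisons.

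For MT-CO1, the mRNA with the highest counts, the 95% intervals of the log2 change were -0.27 to 0.26 under miR-99b-5p, -0.23 to 0.30 under miR-100-3p, -0.31 to 0.23 under miR-1915-3p and -0.37 to 0.16 under miR-1283. MT-ND6 was measured less firmly, with intervals of -0.77 to 0.68 under miR-99b-5p, -1.13 to 0.32 under miR-100-3p, -0.57 to 0.87 under miR-1915-3p and -0.88 to 0.57 under miR-1283. MT-TF, the tested tRNA, had estimates from -1.28 ± 0.83 (miR-380-3p) to 0.26 ± 0.70 (miR-485-3p), and its interval under miR-380-3p ran from -2.99 to 0.43.

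By position of the libraries rather than by the fit, 3 of the 96 pairs of gene and mimic had all 4 mimic libraries on one side of all 4 controls. MT-RNR2 under miR-1915-3p had 13537, 13732, 12456 and 14289 CPM in replicates 1 to 4, against 9731 to 12349 CPM in the controls. Under miR-1283, MT-ND5 had 2021 to 2377 CPM against 2448 to 2754 CPM in the controls, and MT-ND4L 1174 to 1269 CPM against 1344 to 1372 CPM in the controls. The same position was held by 23.9% of all tested genes under miR-99b-5p, 17.4% under miR-380-3p, 20.1% under miR-485-3p, 12.3% under miR-100-3p, 6.63% under miR-1915-3p and 3.07% under miR-1283.

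**Figure D3:**
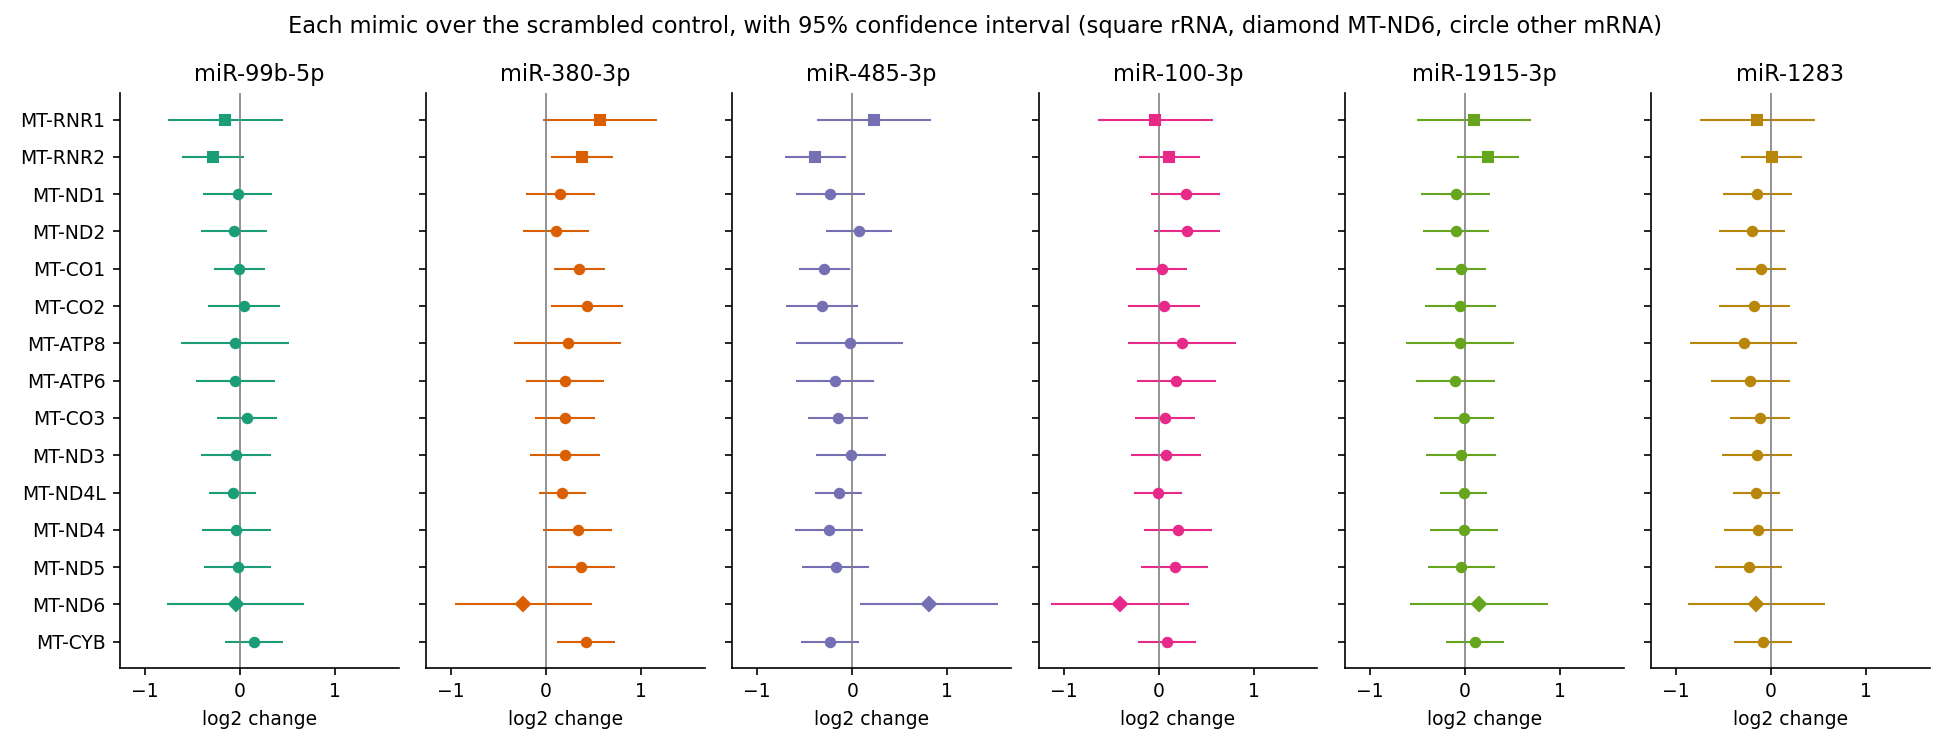
Log2 change of each mitochondrial mRNA and rRNA for each mimic over the scrambled control, with 95% confidence intervals from the edgeR fit; circles are heavy-strand mRNAs, diamonds MT-ND6 and squares rRNAs. None was called after adjustment, and MT-ND6 lies on the other side of 0 from most heavy-strand mRNAs under miR-100-3p, miR-1915-3p, miR-485-3p and miR-380-3p.

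The make-up of the mitochondrial mRNA pool does not depend on library scaling. In most pairs of mRNA and mimic the shares overlapped those of the control, and the pairs that did not are given here. MT-ND2 took 10.7% to 11.4% of mitochondrial mRNA counts under miR-485-3p and 7.57% to 8.31% under miR-380-3p, against 8.65% to 9.59% in the control. The means were 10.9 ± 0.35% under miR-485-3p, 7.99 ± 0.37% under miR-380-3p and 9.04 ± 0.40% in the control (SD, n = 4 each), and neither mimic overlapped the control. MT-ND1 took 7.07% to 8.07% under miR-100-3p and 5.71% to 6.36% under miR-380-3p, against 6.48% to 6.93% in the control. The share of MT-CYB was 4.98% to 5.86% under miR-99b-5p and 5.24% to 5.35% under miR-1915-3p, against 4.43% to 4.96% in the control. With MT-CO3 under miR-380-3p, these were the 7 of 78 pairs of mRNA and mimic, 8.97%, in which the groups did not overlap. By CPM, a different measure, 3.07% (miR-1283) to 23.9% (miR-99b-5p) of all tested genes did not overlap the controls. The 8.97% lies within that range, and no background on the same measure was computed. The 7 pairs were chosen after their values were seen and were not tested. A share that is higher for 1 mRNA lowers those of the rest.

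Within groups, the mitochondrial mRNAs varied more than most highly expressed nuclear genes. The SD of log2 CPM within groups ran from 0.186 (MT-ND4L) to 0.572 (MT-ND6) over the 13 mRNAs, against a median of 0.113 over 145 nuclear genes with a mean of at least 648.5 CPM, the level of MT-ND6, the lowest of the mRNAs; the nuclear genes were not matched to each member's level. For MT-RNR2 it was 0.244 and for MT-RNR1 0.437. For MT-ATP8, the shortest mRNA, it was 0.426. The SD of MT-ND4L was larger than that of 88.3% of these nuclear genes and the SD of MT-CO1 than that of 91.7%.

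The 12 heavy-strand mRNAs moved together from library to library. Over 28 libraries, the deviations of log2 CPM from the group mean had a median Pearson's r of 0.90 over the 66 pairs, from 0.60 to 0.99. MT-RNR2 had a median r of 0.75 with these 12 and MT-RNR1 of 0.50. MT-ND6 had a median r of -0.39, from -0.54 to 0.06. These correlations are descriptions: all genes of a library share its depth, scaling and RNA, and the 13 mRNAs compete for the same total.

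**Figure D4:**
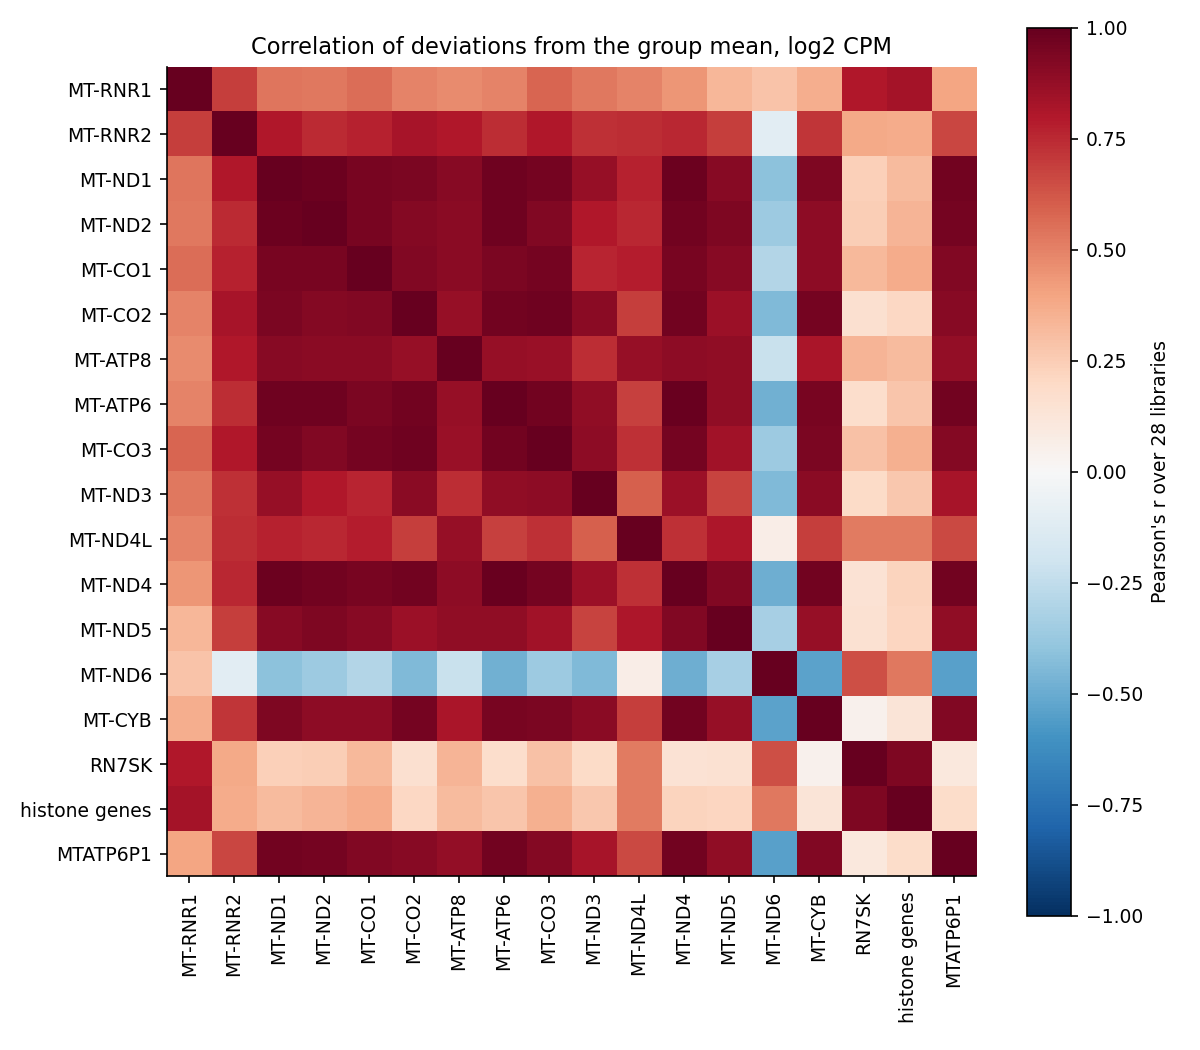
Pearson's r between deviations of log2 CPM from the group mean over 28 libraries, for the mitochondrial mRNAs and rRNAs in genome order, the nuclear RNA RN7SK, the sum of the histone genes and the nuclear copy MTATP6P1. The 12 heavy-strand mRNAs form a block of high positive r, MT-ND6 is negative against nearly all of it, and MT-RNR1 is closest to RN7SK (0.80) and the histone genes (0.83).

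MT-ND6 ranged from 179.7 CPM (miR-380-3p replicate 4) to 1399 CPM (miR-485-3p replicate 5), 7.78-fold, the widest range of the mRNAs. As a share of mitochondrial mRNA counts it was 1.58 ± 0.52% under miR-485-3p, against 0.77 ± 0.20% in the control (SD, n = 4 each). MT-RNR1, as a share of MT-RNR2, was 20.1% to 23.7% under miR-485-3p, against 11.98% to 20.3% in the control, with 3 of 4 libraries above every control. Under miR-380-3p it was 27.8% in replicate 2 and 9.51% to 12.6% in the other 3.

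Within groups, these members moved with RNAs that a poly(A) selection should largely remove. RN7SK is a nuclear RNA with no poly(A) tail that controls transcription elongation, and it ranged from 10.7 to 70.1 CPM. It averaged 30.1 ± 27.1 CPM under miR-380-3p, 30.2 ± 15.5 under miR-485-3p, 17.1 ± 8.9 under miR-99b-5p, 17.8 ± 4.8 under miR-100-3p, 27.4 ± 5.2 under miR-1915-3p, 19.1 ± 6.5 under miR-1283 and 25.3 ± 9.1 in the control (SD, n = 4 each). Without miR-380-3p replicate 2 its group averaged 16.7 ± 5.6 CPM (SD, n = 3). The highest value, 70.1 CPM, was in miR-380-3p replicate 2, which also had the most MT-RNR1 (5352 CPM) and the most histone RNA (148 CPM, against 46.6 to 111 CPM in the other 27 libraries). The next highest, 50.7 CPM, was in miR-485-3p replicate 5, which had the most MT-ND6. As a group, miR-485-3p had 75.9 ± 21.5 CPM of histone RNA, against 81.1 ± 20.9 CPM in the control (SD, n = 4 each). The listed RNAs without a long poly(A) tail summed to 291 ± 121 CPM and 290 ± 92 CPM in these 2 groups. The sums were 195 ± 69 CPM under miR-99b-5p, 305 ± 221 under miR-380-3p and 212 ± 87 under miR-100-3p. Under miR-1915-3p the sum was 290 ± 33 CPM and under miR-1283 226 ± 44 (SD, n = 4 each). Histone genes entered this list by symbol, and the tails of their RNAs were not checked. Of the 59 tested genes of that list, 1 rose and 2 fell under miR-485-3p, where 21.1% of all genes were called.

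Within groups, over 28 libraries, log2 MT-RNR1 had an r of 0.80 with log2 RN7SK (Spearman's rho 0.79, and r 0.68 without miR-380-3p replicates 2 and 4, the 2 libraries whose RN7SK deviated most from the median). For MT-ND6 r was 0.65 (rho 0.56, and 0.51 without the same 2). For MT-RNR2 it was 0.38 and for MT-CO1 0.32. With RN7SK as a term in the edgeR fit, beside the groups, the slope per doubling of RN7SK was 0.54 ± 0.08 log2 units for MT-RNR1 (adjusted p = 2.7e-04) and 0.52 ± 0.13 for MT-ND6 (adjusted p = 0.0367). None of the other 14 tested members was called, with MT-RNR2 at 0.14 ± 0.07 (adjusted p = 0.232) and MT-CO1 at 0.09 ± 0.06 (adjusted p = 0.380). Over all genes 1.84% were called for this slope, and the term was chosen after the data were seen.

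The MT-RNR1 slope was called in 31 of 31 alternatives, with slopes from 0.32 to 0.59, and so also without miR-380-3p replicate 2. The MT-ND6 slope was between 0.42 and 0.59 in the same 31 and was called in 21, with adjusted p-values up to 0.137. Its call ended with the replicate number as a block (adjusted p = 0.0517) and without 1 of 9 libraries in turn: miR-99b-5p replicate 3 (0.0531) or 7 (0.137), miR-380-3p replicate 2 (0.0754) or 4 (0.0673), miR-485-3p replicate 3 (0.0867), miR-100-3p replicate 2 (0.0647), miR-1283 replicate 1 (0.0551), or control replicate 1 (0.0696) or 5 (0.0606). With RN7SK in the fit the log2 change of MT-RNR2 under miR-485-3p was -0.43 with an adjusted p of 0.0415. Whether untailed RNA in these libraries has a part in the differences of MT-ND6 and MT-RNR1 between groups was not tested. The order of the libraries by their code number, a technical label, gave a slope of 0.27 ± 0.08 per 10 codes for MT-ND6 (unadjusted p = 0.00144, adjusted p = 1.00), and 0.00664% of all genes were called for it.

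**Figure D5:**
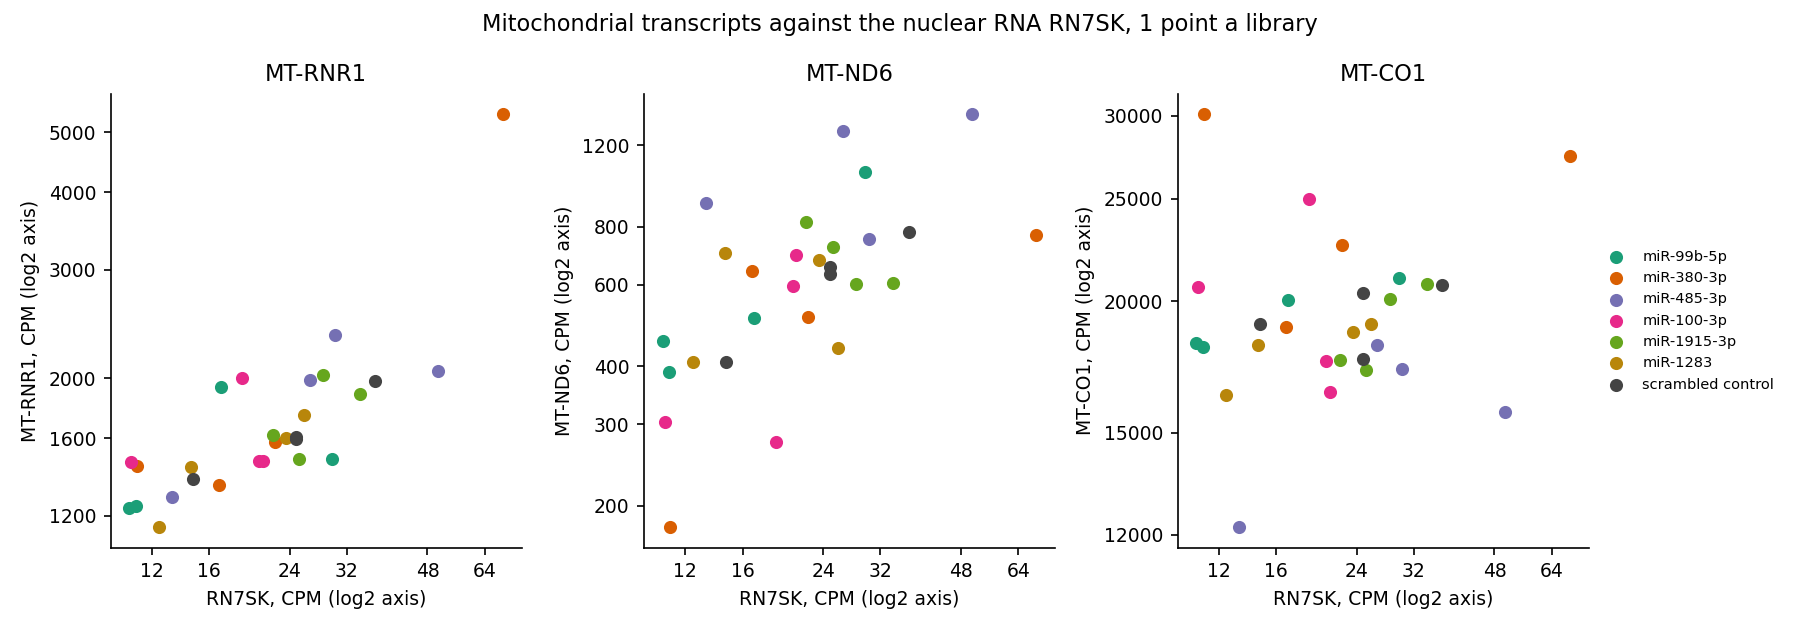
Levels of MT-RNR1, MT-ND6 and MT-CO1 against RN7SK, in CPM on log2 axes, 1 point a library, coloured by group. MT-RNR1 and MT-ND6 are higher in libraries with more RN7SK, MT-CO1 less so. For the plotted levels r is 0.79, 0.63 and 0.15, and within groups, which is not plotted, it is 0.80, 0.65 and 0.32. Library miR-380-3p replicate 2 lies at the upper right for MT-RNR1.

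Reads of MT-ND6 also need care because the gene lies on the strand opposite to long heavy-strand transcripts. The library kit marks the strand, but whether the counting used it is not given in the sources used here, so reads of MT-ND6 and of RNA from the opposite strand cannot be told apart.

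Several members have near-identical copies in the nuclear genome, called nuclear mitochondrial segments. MTATP6P1, the copy of MT-ATP6, matched it at 671 of 681 bases, and MTND2P28 matched MT-ND2 at 1025 of 1042 bases. The count of MT-ATP6 was 6.04 ± 0.60 times that of MTATP6P1 (SD, n = 28), and their log2 levels had an r of 0.97 over 28 libraries. This ratio was 4.06 in miR-100-3p replicate 3 and 4.31 in miR-380-3p replicate 4, against 5.71 to 6.92 in the other libraries. These 2 libraries also had the highest mitochondrial mRNA shares, 11.7% and 11.97%. The expected counts of MT-RNR2, MT-ND1, MT-ND2, MT-CO1, MT-CO2 and MT-ATP6 were not whole numbers in 100% of libraries, and those of MT-ND6 in 92.9%, as happens where reads are divided among genes. Those of MT-CYB, MT-ND5, MT-ND3, MT-ND4L and MT-RNR1 were whole in every library. Values of the first set, MT-ND2 shares included, are uncertain to the extent of that division. Of 41 nuclear copies with a row, 5 passed the filter and 0 were called under any mimic, where 0.0199% (miR-1283) to 21.1% (miR-485-3p) of all genes were called.

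Mitochondrial transcripts are made, processed and translated by nuclear-encoded proteins, for which lists were drawn up. Across 5 lists (transcription and replication of the mitochondrial DNA, RNA processing and stability, tRNA synthetases, translation factors and mitochondrial ribosomal proteins), 153 genes were tested. Under miR-99b-5p 2 of them rose and 18 fell, 13.1% in all, under miR-380-3p 4 rose and 7 fell (7.19%), under miR-485-3p 10 rose and 10 fell (13.1%), and under miR-100-3p 3 rose and 1 fell (2.61%). Under miR-1915-3p and miR-1283 none was called. Each of these shares was below that of all genes in either direction. By direction, 11.8% of the list fell and 1.31% rose under miR-99b-5p, where 8.48% of all genes fell and 8.11% rose, so the share that fell was above that of all genes. Under miR-380-3p 5.25% of all genes fell and 5.6% rose, under miR-485-3p 10.6% fell and 10.5% rose, and under miR-100-3p 3.05% fell and 2.9% rose. The median log2 change was -0.07 under miR-99b-5p and 0.03 under miR-485-3p, against -0.0026 and 0.025 over all genes.

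These counts moved when single libraries were left out. Under miR-99b-5p the number that fell stayed between 15 and 17, and the number that rose was 1 without control replicate 2. Under miR-485-3p the number that rose was 3 without miR-485-3p replicate 3 and 6 without control replicate 2. Under miR-380-3p the number that rose was 1 without replicate 3, replicate 4 or control replicate 1, and 2 without control replicates 2, 4 or 5. Under miR-100-3p the number that rose was 1 without replicates 2 or 3 or control replicates 1 or 5, and 2 without control replicate 2, and the number that fell was 0 without any one of the 8 libraries other than control replicate 5.

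Of the proteins that act on the mitochondrial DNA, POLG, its replicative polymerase, fell under miR-99b-5p by 0.40 on the log2 scale (SE 0.08, adjusted p = 6.1e-04 by edgeR), and RNASEH1, which removes RNA primers, fell by 0.37 (SE 0.08, adjusted p = 0.00168). TFB1M, which methylates the 12S rRNA, fell under miR-380-3p by 0.53 (SE 0.13, adjusted p = 0.00802), and MTERF, a transcription termination factor, rose by 0.42 ± 0.10 (adjusted p = 0.00702). POLRMT, the mitochondrial RNA polymerase, was called under none of the mimics, with the estimate farthest from 0 at -0.49 ± 0.20 under miR-99b-5p (adjusted p = 0.0908). That estimate was called in 4 of 23 alternatives, among them without miR-99b-5p replicate 7 (-0.65, adjusted p = 0.0325). Under miR-380-3p POLRMT was called in 1 of 23 alternatives, with the GC slope as a term (-0.23, adjusted p = 0.0308). TFAM, which packages the mitochondrial DNA and starts its transcription, was at 0.28 ± 0.11 under miR-485-3p (adjusted p = 0.0611), and without miR-485-3p replicate 2 at 0.40 with an adjusted p of 0.00244. It was also called with the GC slope (adjusted p = 9.4e-04) or RN7SK (adjusted p = 0.0393) as a term. These were the 3 of 23 alternatives that called TFAM under miR-485-3p. Over the 23 its estimate ran from 0.14 to 0.40, with adjusted p-values up to 0.437.

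Of the RNA-handling proteins, GRSF1, a component of mitochondrial RNA granules, fell under miR-485-3p by 0.33 (SE 0.08, adjusted p = 0.0022 by edgeR), and FASTKD5, which is needed for cleavage of precursors not bounded by tRNAs, fell by 0.25 (SE 0.06, adjusted p = 0.00483). LRPPRC, which stabilises heavy-strand mRNAs, fell under miR-485-3p by 0.28 (SE 0.09, adjusted p = 0.0309). The LRPPRC call ended without miR-485-3p replicates 1 (0.0923) or 2 (0.129) or control replicates 1 (0.0685) or 2 (0.108), and also with library-size scaling (0.0508) and in a fit of only the 8 libraries (0.0818). FASTKD1 fell under miR-380-3p by 0.45 (SE 0.11, adjusted p = 0.00553), and HSD17B10, a subunit of mitochondrial RNase P, fell under miR-99b-5p by 0.30 (SE 0.08, adjusted p = 0.00954).

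Of the translation apparatus, the ribosomal proteins MRPL2 and MRPL15 fell under miR-99b-5p by 0.75 (SE 0.10, adjusted p = 7.5e-06 by edgeR) and 0.44 (SE 0.07, adjusted p = 1.7e-05). MRPS18B and MRPS27 fell under miR-485-3p by 0.75 (SE 0.09, adjusted p = 5.4e-07) and 0.39 (SE 0.05, adjusted p = 3e-06), and MRPL3 and MRPL40 under miR-380-3p by 0.56 (SE 0.07) and 0.40 (SE 0.08). The elongation factor gene TSFM fell under miR-380-3p by 0.37 (SE 0.08, adjusted p = 0.00271), and C12orf65, a release factor family member, rose under miR-99b-5p by 0.37 ± 0.08 (adjusted p = 0.00192). In each case the calls were kept in 23 of 23 alternatives.

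Among 8 regulators of mitochondrial biogenesis, PPARGC1A, a transcriptional coactivator of respiratory genes, fell under miR-485-3p by 0.93 (SE 0.15, adjusted p = 6.3e-05 by edgeR). ESRRG, an orphan nuclear receptor that binds it, rose under miR-99b-5p by 1.37 ± 0.16 (adjusted p = 7.8e-07). The other 6 were called under none of the mimics with all libraries. Of all genes, 21.1% were called under miR-485-3p, 16.6% under miR-99b-5p and 10.9% under miR-380-3p with all libraries. Without 1 library the counts of this list moved: 1 of the 8 fell under miR-380-3p without its replicate 1 or control replicate 1, and 2 fell under miR-485-3p without its replicate 5.

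The nuclear-encoded partners of the mitochondrial subunits, 75 genes of the respiratory chain and ATP synthase, had 0 that rose and 11 that fell under miR-99b-5p, among them NDUFA12 by 0.79 (SE 0.09) and NDUFB5 by 0.54 (SE 0.08), and 6 that rose and 3 that fell under miR-485-3p, among them NDUFB10 by 0.93 (SE 0.13) and NDUFB9 by 0.50 (SE 0.08). The called genes were 14.7% of the 75 under miR-99b-5p, 12% under miR-485-3p and 2.67% under miR-380-3p, against 16.6%, 21.1% and 10.9% of all genes. The 14.7% under miR-99b-5p all fell, where 8.48% of all genes did. With single libraries left out, the number that fell under miR-99b-5p ran from 8 to 13. The number that fell under miR-485-3p was 5 without miR-485-3p replicate 2. Under miR-380-3p 0 rose and 2 fell, among them the complex IV subunit COX7B by 0.31 (SE 0.07, adjusted p = 0.00496 by edgeR). There 7 fell without miR-380-3p replicate 2 and 1 without replicate 3 or control replicates 2 or 4. Under miR-100-3p and miR-1283 none was called, and under miR-1915-3p 1 fell, against 0.232% of all genes, NDUFA10 (adjusted p = 0.0254 by edgeR), whose call ended in 11 of 23 alternatives, with adjusted p-values up to 0.328. Without 1 library it ended for miR-1915-3p replicates 1 (0.114), 3 (0.142) and 4 (0.0637) and for control replicates 1 (0.0948), 2 (0.0930), 4 (0.0529) and 5 (0.0852). Under these mimics no mitochondrially encoded subunit was called, and the difference between the nuclear and mitochondrial subunits was not tested.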

How the data were processed

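Poly(A) RNA of 28 libraries was sequenced by the submitters. Reads were aligned to hg19 with STAR, per the submitters' processing notes, which give no version. Values are the authors' deposited expected counts, one per gene and library, and 10.2% of them have a fractional part. The counting tool, the annotation, the use of strand and the mitochondrial reference are not given in the sources used here. All columns were matched to samples by title, and 0 were left without one.

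These were rounded before testing. Low genes were removed with filterByExpr of edgeR 4.0.16 (minimum count 10), and the rest were scaled by TMM (factors 0.948 to 1.03) and fitted with the quasi-likelihood test on all 28 libraries together (7 groups, 21 residual degrees of freedom, common dispersion 0.015). Tests were two-sided, adjusted by Benjamini-Hochberg over 15058 genes, and called under 0.05. CPM are TMM-scaled. Shares are of unscaled totals. CPM per kb uses the length in the deposited table, which equals the GENCODE v29 length for all 30 members. Coordinates and transcript sequences are GENCODE v29 on GRCh38, which differs from the authors' build. The edgeR fit was tested on simulated counts, drawn with a dispersion of 0.015 for every gene and with no movement shared between genes. The members varied more than most highly expressed nuclear genes and moved together, so that test does not cover their case.

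Alternatives were DESeq2 1.42.0, limma 3.58.1 (voom), other scalings and filters, a replicate block, library code, GC slope (GC known for 98.7% of genes), only the 8 libraries of a comparison, and leaving out libraries, among them miR-1915-3p replicates 1 and 4, whose titles carry a suffix of unstated meaning. Added after seeing the data were RN7SK as a term and leaving out miR-380-3p replicate 2 with miR-485-3p replicate 3. No pair of libraries agreed within sampling noise (chi-square per gene at least 2.81). The naming rule took all members, then of each list and mimic the 2 called genes with the smallest adjusted p, and POLRMT, TFAM, LRPPRC and POLG. It gave 40 called results, of which 23 kept their call in all 23 alternatives. Those are named, with LRPPRC and NDUFA10, and the other 15 are not described. Members and lists were chosen with earlier results of these data known.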

Additional observations from a re-analysis of the deposited data

Results flagged for a closer look

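In 147 groups of 4 libraries (the mitochondrial shares and ratios and the CPM of each mRNA and rRNA, by group), 8 had a library whose gap to the nearest of the others exceeded Dixon's 95% critical value for 4 samples. Chance flags about 1 in 20 such groups.

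Library miR-380-3p replicate 2 was set apart by MT-RNR1, at 5352 CPM against 1345 to 1578 CPM in the other 3, and by MT-RNR1 as a share of MT-RNR2, at 27.8% against 9.51% to 12.6%. Its RN7SK and histone values are given in the results. In miR-99b-5p replicate 7, MT-ND6 took 1.20% of mitochondrial mRNA counts, against 0.519% to 0.599% in the other 3, and MT-ND5 had 3167 CPM against 2309 to 2425 CPM. In miR-99b-5p replicate 3, MT-CYB had 4018 CPM against 4365 to 4431 CPM. In miR-100-3p replicate 3, MT-RNR1 had 2005 CPM against 1464 to 1470 CPM, and MT-ND3 had 1355 CPM against 834.9 to 898.4 CPM. In miR-485-3p replicate 3, the library with the smallest mitochondrial share, MT-ND4L had 862 CPM against 1308 to 1390 CPM in the other 3.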

How the results depend on the processing

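The number of mitochondrial mRNAs called under miR-380-3p was 0 with DESeq2, limma-voom, the other scalings and filters and the replicate block. It was 1 (MT-CYB, log2 change 0.45) with library code as a term, 2 (MT-CYB and MT-CO1) with the GC slope, and 0 to 2 with 1 library left out, the 2 being MT-CYB and MT-CO1 without miR-380-3p replicate 1. Under miR-485-3p, 1 mRNA (MT-ND6) was called in a fit of only the 8 libraries, and 1 rRNA (MT-RNR2) with RN7SK as a term. With no filter 1 tRNA was called under miR-99b-5p, MT-TA, with 0, 1, 0 and 1 counts in miR-99b-5p replicates 2, 3, 4 and 7, against 2, 6, 3 and 8 in control replicates 1, 2, 4 and 5. The share of all genes called can also change with the setting. It is not given beside these counts, so they are not read as results about the members. All other counts of called members were 0 under every alternative run. With nuclear genes or only the tested genes as the denominator, with the replicate block, or without any one library, each mean difference in mRNA, rRNA and tRNA share moved by less than 1 SD between replicates, which is wide: without any one library the mRNA difference ran from 0.855 to 2.29 percentage points under miR-380-3p, -1.41 to -0.393 under miR-485-3p and -0.33 to 1.28 under miR-100-3p, where it changed sign. Gene by gene, the signs of the mRNA estimates were the same under every scaling, except that of MT-ND4L under miR-100-3p with RLE or nuclear-gene scaling. They were not so without single libraries, as given in the results for miR-100-3p, miR-99b-5p and miR-1915-3p. Replicate numbers did not clearly pair the libraries. Deviations of same-numbered libraries had a mean r of 0.052, against -0.013 for other-numbered ones, and 8 of 28 libraries correlated best with their own number. An r over 0.1 was held by 27 of 67 same-numbered pairs and 60 of 269 other-numbered pairs. The replicate block called 0 members. Depth limits the tRNAs, and the spread between libraries limits the rest.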
